A study of Homo sapiens with 6 samples.

Results

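The ATP-binding cassette (ABC) family was followed in A549 and H23, 2 established cell lines from human lung cancer. Members were taken as every gene whose symbol is ABC, a subfamily letter from A to G and a number, which gave 46 of the 27968 genes in the tables and 160 of the 70006 transcripts. Both lines serve as models of lung adenocarcinoma, and each comes from a single tumour, so a difference between them is a difference between these 2 lines. Each was grown as 3 separate cultures with no treatment and taken for RNA near confluence, in DMEM for A549 and in RPMI medium (RPM1640 in the labels) for H23, with fetal bovine serum in each. Line and medium changed together and cannot be told apart. In bulk RNA, fewer cells expressing a gene and less of its RNA per cell cannot be told apart either. The study's title names a comparison of the 2 transcriptomes.

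ABC proteins bind and hydrolyse ATP through a conserved cassette, and most use it to move a substrate across a membrane. Subfamilies A and G hold many lipid and sterol transporters, B holds the classical multidrug pump with several mitochondrial and lysosomal transporters, C holds the multidrug resistance proteins, which carry drugs and glutathione, glucuronide or sulfate conjugates, and D serves peroxisomes and cobalamin. E and F have no membrane part and act on ribosomes. In the lung the family is best known for ABCA3, which loads surfactant lipids into the lamellar bodies of alveolar type II cells, and for export pumps that lower the drug content of tumour cells.

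The H23 libraries held 29395795 to 42421642 estimated read counts and the A549 libraries 23399562 to 25348083. Levels of a gene between libraries are given as CPM, counts scaled to library size with TMM factors, and a floor of 3 counts in a library was worth 0.0707 to 0.128 CPM. Levels of different genes are set side by side only as TPM, which is scaled for transcript length. H23 replicate 1 stood apart: its chi-square per gene against H23 replicates 2 and 3 was 106.4 and 135.5, where the other H23 pair gave 5.53 and the A549 pairs 3.79 to 3.998. Among the 30 family members tested it lay below both other H23 libraries in 18 and above both in 8, and it lay outside them in 87.4% of all genes tested. The rank correlation between a gene's transcript GC content and its ratio of H23 replicate 1 to the other H23 libraries was -0.673 over the 30 members and -0.581 over 14844 genes. These are correlations across genes, which are not independent replicates. Small non-coding RNAs took a larger part of the A549 TPM, where RNA5-8SN4 or RMRP led with 11.4% to 13.3% of a library, against at most 2.88% for the leading gene of an H23 library. As to identity, the epithelial keratin genes KRT8 and KRT18 were abundant in both lines, and the 6 epithelial markers summed to 3630 to 3780 CPM in H23 and 7950 to 8160 CPM in A549. Most of that difference was KRT7, which averaged 3562 ± 48.4 CPM in A549 against 1.18 ± 0.112 in H23 (SD, n = 3), while the adhesion genes EPCAM and CDH1 were higher in H23 (log2 -0.91 ± 0.19 and -1.43 ± 0.17). Of 6 distal lung markers, the surfactant gene SFTPA1 and the club cell gene SCGB1A1 were at 0 counts in all libraries, and the list summed to 3.44 to 4.48 CPM in H23 and 0.914 to 1.28 CPM in A549. The lung transcription factor gene NKX2-1 was at 2.83, 3.44 and 2.59 CPM in H23 and 0 counts in all A549 libraries. SFTPB had 0 to 2 counts in H23 libraries and 3 to 6 in A549 libraries. Markers of other cell types were low: 5 blood cell genes summed to 4.70 to 8.72 CPM in H23 and 5.43 to 6.57 CPM in A549, with CD3E and HBB at 0 counts, 3 endothelial genes to at most 1.10 CPM, and 4 fibroblast genes to 19.0 to 27.6 CPM in H23 and 9.51 to 10.7 CPM in A549, with DCN at 0 counts. These lists moved with the line to that extent, and their part in the results was not tested.

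A549 carried more RNA of 6 of the 9 tested pumps that export drugs and conjugates. The ribosome-associated members split, with ABCE1 higher in A549 and ABCF1 higher in H23, while the H23 call of ABCF2 depended on the setting. The canalicular conjugate pump ABCC2 averaged 0.777 TPM in H23 and was the most abundant family member by TPM in each A549 library. Low counts kept 16 of the 46 out of the test. Of the 30 tested members, 12 passed edgeR's quasi-likelihood test at an adjusted p of 0.05 with more RNA in A549, 11 with more in H23, and 7 did not pass. Over all 15426 genes tested, 77.2% passed, 37.6% higher in A549 and 39.6% higher in H23, so the family's share of calls lay close to that of the whole table. The members' median log2 fold of A549 over H23 was -0.04, beside -0.03 over all genes. In 23 of the 30 the libraries of the lines did not overlap, as in 82.1% of all genes, and 17 of the 30 passed with at least a 2-fold difference, as did 50.1% of all genes. Without H23 replicate 1 the counts became 14 higher in A549 and 15 higher in H23, where 88.6% of all genes passed, 44.0% and 44.6% by direction.

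**Figure D1:**
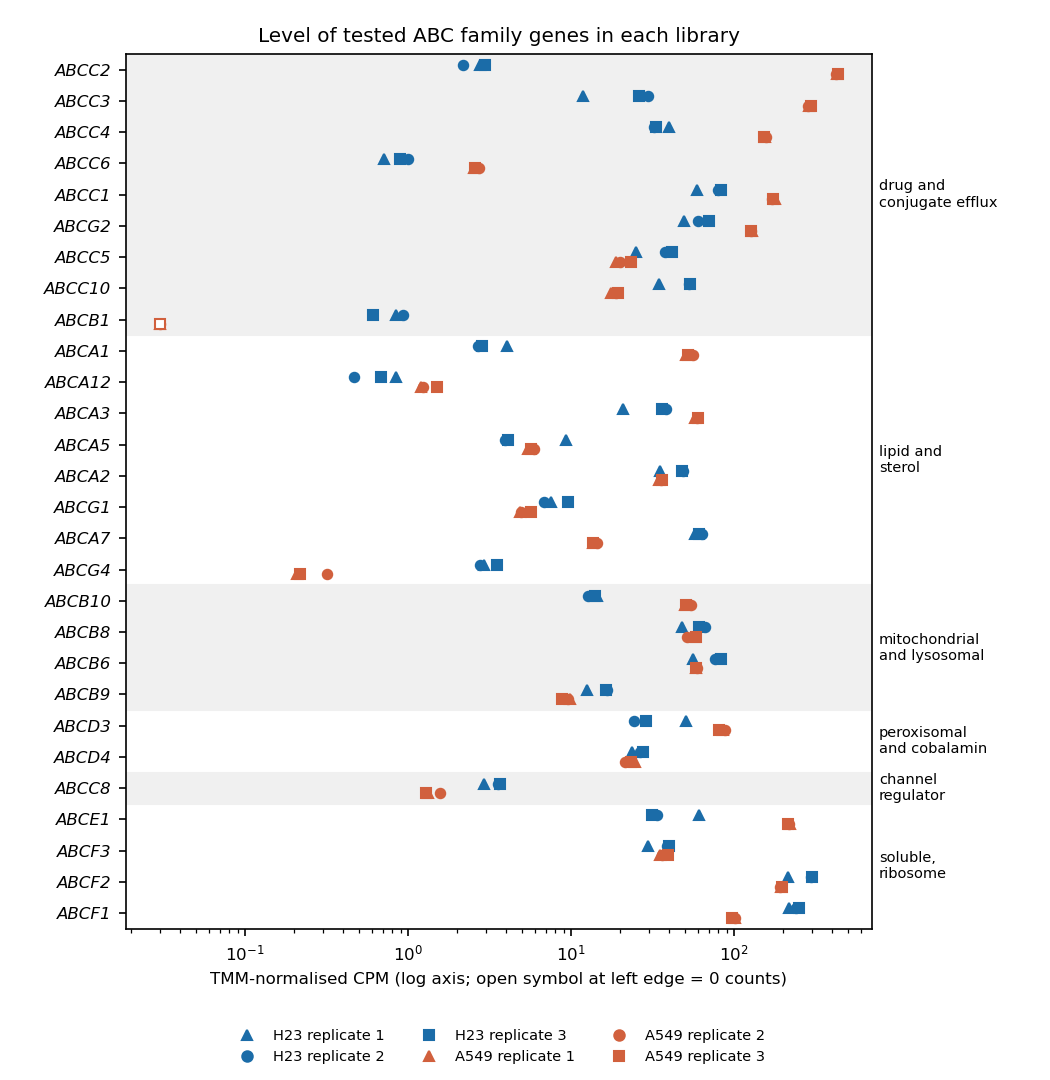
CPM on a log axis of the tested ABC family genes reported here in each of the 6 libraries, blue for H23 and orange for A549, with a different symbol per replicate and genes grouped by role. The 3 A549 libraries of ABCC2, ABCC3, ABCA1 and ABCE1 lie to the right of the H23 libraries, those of ABCA7, ABCF1 and ABCG4 to the left, and ABCB1 has 0 counts in A549 (open symbol).

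The make-up of the family by TPM differed between the lines. Genes of drug and conjugate efflux held 16.7 ± 0.575% of the family's summed TPM in H23 and 44.99 ± 0.330% in A549 (mean ± SD, n = 3 each). The soluble, ribosome-associated members held 50.7 ± 1.98% in H23 and 30.5 ± 0.0585% in A549. Mitochondrial and lysosomal members held 17.6 ± 0.585% and 12.7 ± 0.191%, and lipid and sterol members 7.11 ± 0.134% and 4.47 ± 0.120%. For these 4 role groups no A549 library overlapped an H23 library, and 0.1 is the smallest two-sided p of an exact permutation test at this size. Peroxisomal and cobalamin members held 7.74 ± 1.88% in H23 and 7.29 ± 0.175% in A549, and here the libraries overlapped. ABCC2 alone held 0.147 ± 0.0317% of the family in H23 and 15.3 ± 0.121% in A549. ABCF1 went the other way, from 20.9 ± 1.07% in H23 to 5.74 ± 0.169% in A549. All these shares are parts of a fixed total, so a rise in some lowers the rest. On counts the log2 fold of ABCF1 was -1.24. Per library, 24 or 25 members reached 1 TPM and 14 to 16 reached 10 TPM, while 18 members stayed under 1 TPM in all 6 libraries. The family's part of all counts was 0.116% to 0.138% in H23 and 0.222% to 0.225% in A549, on a scale that does not allow for length. Its summed TPM overlapped between the lines, at 435 to 599 in H23 and 544 to 586 in A549.

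**Figure D2:**
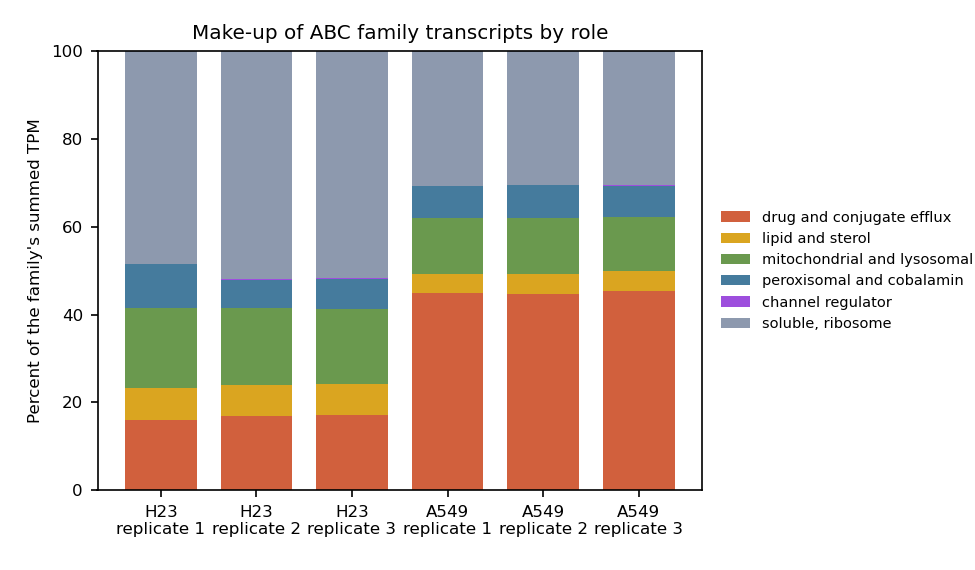
Percent of the family's summed TPM held by each role group, as stacked bars from 0 to 100%, for each of the 6 libraries. The lowest, orange block (drug and conjugate efflux) takes about 16.7% in H23 and 44.99% in A549, and the top, grey block (soluble members) shrinks from 50.7% to 30.5%.

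Drug and conjugate efflux held ABCC2, the member with the largest fold toward A549. Of its 12 genes 9 were tested. Calls went 6 for A549 and 3 for H23, beside 37.6% and 39.6% of all tested genes. The median log2 fold was 1.24, which stayed at 1.24 with ABCB1 set at its bound. ABCC2, or MRP2, sits on the canalicular face of hepatocytes and exports glutathione and glucuronide conjugates. It stood at 2.77, 2.17 and 2.94 CPM in H23 replicates 1, 2 and 3 and at 426, 421 and 431 CPM in the A549 replicates. The libraries of the lines were far apart, and the log2 fold was 7.33 ± 0.14 (approximate standard error, edgeR adjusted p = 1.69e-07). Its promoter, 250 bases before to 50 after the RefSeq start, lies at chr10:99782390-99782689 on the + strand of GRCh38.p14. It is shown because ABCC2 had the family's highest fold toward A549, with CG dinucleotides in capitals, of which this window holds 1.
ABCC2: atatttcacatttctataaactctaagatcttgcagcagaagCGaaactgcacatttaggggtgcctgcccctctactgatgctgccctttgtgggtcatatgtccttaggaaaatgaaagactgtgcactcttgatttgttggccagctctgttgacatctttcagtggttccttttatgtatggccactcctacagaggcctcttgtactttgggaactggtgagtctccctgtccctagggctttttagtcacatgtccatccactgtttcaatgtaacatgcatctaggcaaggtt

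ABCC3, or MRP3, is the basolateral conjugate pump that also carries bile salts. Its level was 11.9, 29.4 and 25.9 CPM in H23 and 286, 282 and 297 CPM in A549. H23 replicate 1 was well below the other H23 libraries, which lay in turn far below A549 (log2 3.69 ± 0.33, edgeR adjusted p = 5.76e-05). ABCC4, or MRP4, exports cyclic nucleotides, prostanoids and nucleotide drugs. It was at 39.6, 32.2 and 33.0 CPM in H23 and 154, 157 and 151 CPM in A549, again with no overlap (log2 2.14 ± 0.11). ABCC1, or MRP1, exports leukotriene C4 and glutathione conjugates. Its H23 libraries stood at 59.2, 80.0 and 82.7 CPM and its A549 libraries at 178, 172 and 173 CPM. All A549 libraries were above all H23 libraries, giving log2 1.24 ± 0.14 (edgeR adjusted p = 0.000155). ABCG2, the breast cancer resistance protein, exports urate, porphyrins and many drugs. It was abundant in both lines, at 49.3, 59.6 and 69.7 CPM in H23 and 129, 126 and 127 CPM in A549. The lines did not overlap, and the log2 fold of 1.10 ± 0.13 was the smallest among the A549-high efflux genes.

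ABCC6, which mediates ATP release and whose loss causes pseudoxanthoma elasticum, was low in both lines, at 0.713, 1.002 and 0.894 CPM in H23 and 2.54, 2.72 and 2.59 CPM in A549. Its log2 fold of 1.59 ± 0.19 on counts passed (edgeR adjusted p = 0.000242) but was -0.07 on log2(TPM + 1), where it did not pass. RSEM gave 88.0 ± 6.76% of the gene's transcripts in H23 and 60.9 ± 5.34% in A549 to NM_001079528, a form of only 718 bases. The pseudogenes ABCC6P1 and ABCC6P2 are near copies of part of ABCC6, and the division of reads among them is uncertain. ABCC6P2 did not pass, with 0.555 ± 0.160 CPM in H23 beside 0.441 ± 0.0692 CPM in A549.

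On the H23 side, ABCC10, or MRP7, an exporter of taxanes, stood at 34.4, 52.8 and 53.3 CPM in H23 against 17.5, 18.9 and 19.5 CPM in A549. Every H23 library was above every A549 library (log2 -1.33 ± 0.18, edgeR adjusted p = 0.000453). ABCC5, or MRP5, a cyclic nucleotide exporter, had a log2 fold of -0.73 ± 0.20 (edgeR adjusted p = 0.0126), which did not pass without A549 replicate 1. ABCB1 is P-glycoprotein, the classical multidrug pump. It was low in H23, with 32, 28 and 26 counts or 0.845, 0.936 and 0.612 CPM, and had 0 counts in each A549 library. Against a floor of 3 counts over the A549 group H23 was at least 18.8-fold higher (edgeR adjusted p = 0.000534). At 0.300 ± 0.0600 TPM in H23 it was rare there too. Its chromosomal neighbour ABCB4, a phospholipid exporter of bile, was too low to test in both lines. Without H23 replicate 1 the 9 efflux calls kept their directions, with log2 folds of 0.97 to 7.34 for the A549-high genes. With trends with transcript length and GC content removed, the 6 and 3 calls again stood, and on log2(TPM + 1) there were 5 and 3.

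**Figure D3:**
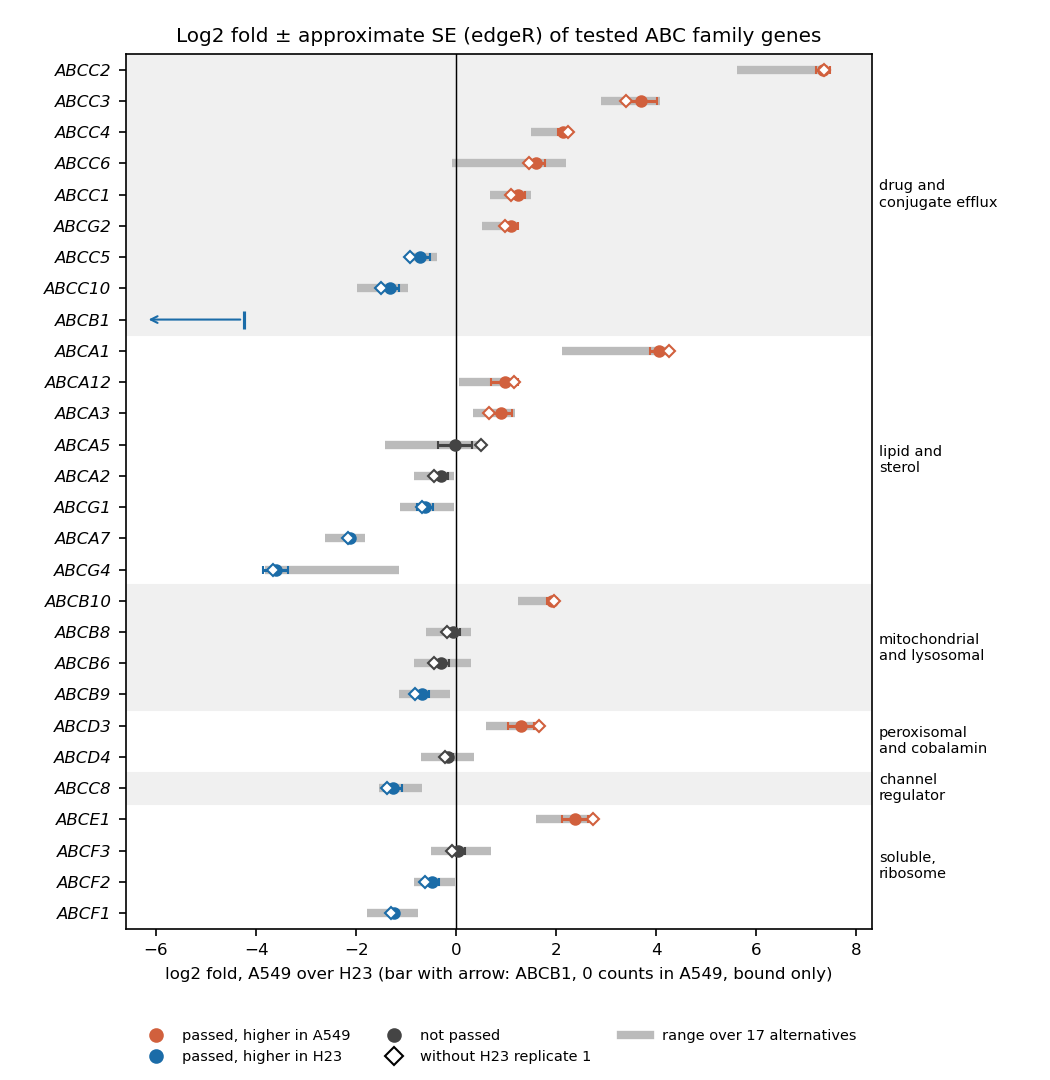
Log2 fold of A549 over H23 for the tested ABC family genes reported here, with its approximate standard error (bars), the value without H23 replicate 1 (open diamonds) and the range over the 17 alternative settings (grey). ABCC2 at 7.33 and ABCG4 at -3.61 are the extremes of the folds drawn as points. ABCB1 is drawn as a bound, and grey bars that cross 0 belong to genes whose direction depended on the setting.

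Of 16 lipid and sterol transporter genes 8 were tested, with 3 calls for A549, 3 for H23 and 2 genes not passing, near the 37.6% and 39.6% of all tested genes called in each direction, and the median log2 fold was -0.17. ABCA1 passes cholesterol and phospholipid to lipid-poor apolipoprotein A-I and is a target of the liver X receptors. It stood at 4.04, 2.67 and 2.85 CPM in H23 and 50.5, 55.6 and 52.3 CPM in A549. The lines were far apart, with a log2 fold of 4.05 ± 0.18 (edgeR adjusted p = 2.3e-06). ABCA3, the surfactant lipid transporter, was at 20.8, 38.1 and 36.2 CPM in H23 and 57.2, 59.3 and 60.1 CPM in A549. The A549 libraries were all higher (log2 0.89 ± 0.22, edgeR adjusted p = 0.00814), but the fold was 0.66 without H23 replicate 1, 0.53 with a length trend removed and 0.34 on log2(TPM + 1), the last 2 not passing. ABCA3 was thus present in both lines where SFTPA1 was at 0 counts and the other surfactant markers, SFTPB and SFTPC, had at most 6 counts in a library. ABCA12, a lipid transporter of the skin barrier, was near 1 CPM in both lines at log2 0.97 ± 0.27, a call lost on log2(TPM + 1) and with a length trend removed.

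Higher in H23 were ABCA7, ABCG4 and ABCG1. ABCA7, a phospholipid transporter with a role in phagocytosis, stood at 57.3, 63.2 and 60.5 CPM in H23 and 13.6, 14.3 and 13.5 CPM in A549. Its libraries were tight within each line (log2 -2.12 ± 0.09, edgeR adjusted p = 1.71e-06). ABCG4, a sterol exporter known mainly from brain, was at 2.93, 2.77 and 3.53 CPM in H23 and 0.21, 0.32 and 0.22 CPM in A549. The A549 libraries held few counts of it, yet the lines were apart (log2 -3.61 ± 0.25, edgeR adjusted p = 1.59e-05). ABCG1, which passes cholesterol to high-density lipoprotein and is like ABCA1 a liver X receptor target, went opposite to ABCA1, with 7.97 ± 1.40 CPM in H23, 5.17 ± 0.454 CPM in A549 and a log2 fold of -0.63 ± 0.16. That call was lost once trends with length and GC were removed, at -0.05. Log2 folds of -0.31 ± 0.14 for ABCA2, a lipid transporter of myelin-forming cells, and -0.02 ± 0.34 for ABCA5 did not pass. ABCA5, whose transcript has 33.1% GC, was at 9.25 CPM in H23 replicate 1 against 3.91 and 4.07 in the other H23 libraries and 5.45 to 5.91 in A549, and its log2 fold was 0.50, passing, without that library. Its sign also turned under other settings. With length and GC trends removed ABCA5 passed at -1.42, higher in H23. Without H23 replicate 1 this group had 4 called in each direction. The promoters of the gene with the largest fold in each direction and of ABCA7 follow, on GRCh38.p14, again with CG dinucleotides in capitals. ABCA1 lies at chr9:104928106-104928405 on the - strand and holds 23, ABCG4 at chr11:119148802-119149101 on the + strand holds 26, and ABCA7 at chr19:1039857-1040156 on the + strand holds 29.
ABCA1: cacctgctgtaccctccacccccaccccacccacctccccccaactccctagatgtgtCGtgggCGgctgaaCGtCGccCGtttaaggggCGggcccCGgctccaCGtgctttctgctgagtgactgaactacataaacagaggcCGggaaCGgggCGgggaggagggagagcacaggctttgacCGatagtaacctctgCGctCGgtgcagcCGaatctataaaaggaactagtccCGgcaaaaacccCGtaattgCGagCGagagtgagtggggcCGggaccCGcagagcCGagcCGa
ABCG4: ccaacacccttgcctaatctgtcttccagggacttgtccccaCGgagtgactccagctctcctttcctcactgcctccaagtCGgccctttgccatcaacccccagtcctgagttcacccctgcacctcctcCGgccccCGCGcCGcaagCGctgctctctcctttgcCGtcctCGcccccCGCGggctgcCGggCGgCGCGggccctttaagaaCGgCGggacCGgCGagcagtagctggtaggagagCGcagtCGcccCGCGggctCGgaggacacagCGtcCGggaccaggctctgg
ABCA7: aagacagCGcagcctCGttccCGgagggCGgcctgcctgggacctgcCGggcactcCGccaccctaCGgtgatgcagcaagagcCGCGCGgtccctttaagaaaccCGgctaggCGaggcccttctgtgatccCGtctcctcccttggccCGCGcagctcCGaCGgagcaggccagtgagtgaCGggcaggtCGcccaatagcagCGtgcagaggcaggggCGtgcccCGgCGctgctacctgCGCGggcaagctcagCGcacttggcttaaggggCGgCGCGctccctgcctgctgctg

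RefSeq promoters of this kind were matched for 35 of the 46 members. Their median CpG count was 20, beside 14 over 27305 promoters, and their median GC content 61.3% beside 58.3%. Among the 24 matched members that passed the filter on low counts the median was 25.5 CpGs and 20 held 15 or more. Among the 11 that did not pass it, the median was 3 and 1 held 15 or more. The same split was not made over all promoters, so it is not read as a trait of this family. ABCC2, ABCB1 and ABCA12 with 1 CpG and ABCG2 with 3 were the tested members at the low end. Only 1 window was taken per gene, and a gene with several starts may use another. Whether these windows hold the starts used in these lines was not tested. Of motifs searched on both strands, the antioxidant response element core TGACNNNGC matched in 7 of 35 member promoters, against 13.6% of all. These were ABCA2, ABCA3, ABCA5, ABCB6, ABCC4, ABCD4 and ABCF1, a set that holds genes higher in A549, higher in H23 and not passing. The xenobiotic response element core GCGTG matched in 13 of 35 (36.3% of all), the E-box CACGTG in 4 (7.43%), the GC box GGGCGG in 18 (44.6%) and TATAAA in 5 (11.95%). The liver X receptor element of the DR4 type, in its perfect form, matched in 0 of 35 member promoters and in 0.0183% of all. A match or its absence in these 300 bases is a description of the letters only.

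Mitochondrial and lysosomal transporters of subfamily B work as dimers of smaller subunits. ABCB10, a mitochondrial inner membrane protein needed for heme synthesis, was at 14.4, 12.7 and 13.9 CPM in H23 and 50.2, 54.0 and 50.9 CPM in A549. All A549 libraries were higher, with a log2 fold of 1.92 ± 0.09 (edgeR adjusted p = 3.25e-06). ABCB9, a lysosomal peptide transporter, was higher in H23 (log2 -0.69 ± 0.14), a call lost once length and GC trends were removed. ABCB6, a porphyrin transporter, and ABCB8, linked to mitochondrial iron export, were at -0.29 ± 0.15 and -0.07 ± 0.14 on the log2 scale and did not pass. Without H23 replicate 1 ABCB6, ABCB8 and ABCB9 passed higher in H23 and ABCB10 higher in A549. Removing length and GC trends turned ABCB6 and ABCB8 to 0.30 and 0.29, both passing. The direction of ABCB6 and ABCB8 thus depended on the setting, while ABCB10 passed the same way under each of the 17 alternatives.

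ABCD3, or PMP70, imports branched and dicarboxylic acyl-CoA into peroxisomes. It stood at 50.5, 24.3 and 28.6 CPM in H23 and 85.1, 87.4 and 81.1 CPM in A549. H23 replicate 1 was the closest to A549, and the log2 fold of 1.29 ± 0.26 (edgeR adjusted p = 0.00334) was 1.66 without it and 0.59 with length and GC trends removed, both passing. The ABCD3 transcript has 37.6% GC. ABCD4, which brings cobalamin out of lysosomes, did not pass (log2 -0.16 ± 0.10). Without H23 replicate 1 ABCD4 passed higher in H23, and with length and GC trends removed it passed at 0.35, higher in A549. ABCC8, the sulfonylurea receptor that regulates potassium channels of pancreatic beta cells, was low, at 2.91, 3.58 and 3.65 CPM in H23 and 1.33, 1.56 and 1.29 CPM in A549. The lines did not overlap (log2 -1.27 ± 0.18, edgeR adjusted p = 0.000497).

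The soluble members gave the family's most abundant RNAs in H23, where ABCF2 and ABCF1 led in each library by TPM. ABCE1 splits ribosomes into subunits after termination. It stood at 60.9, 33.8 and 31.2 CPM in H23 and 219, 218 and 215 CPM in A549. H23 replicate 1 was the highest H23 library and still far below A549 (log2 2.37 ± 0.26, edgeR adjusted p = 0.000153). With its transcript at 38.4% GC, the fold was 2.74 without H23 replicate 1 and 1.58 with length and GC trends removed. ABCF1, which binds initiation factor eIF2, was opposite, at 216, 241 and 249 CPM in H23 and 101, 101 and 96.4 CPM in A549. No library crossed over (log2 -1.24 ± 0.08, edgeR adjusted p = 1.43e-05). ABCF2 was higher in H23 by a smaller margin (270 ± 49.0 against 194 ± 2.80 CPM, log2 -0.48 ± 0.14, edgeR adjusted p = 0.0158), and the call was lost when any library other than H23 replicate 1 was left out, and once length and GC trends were removed (log2 -0.02). ABCF3, a less studied relative, did not pass (log2 0.04 ± 0.13) but passed at 0.69 with length and GC trends removed, and passed higher in H23 on log2(TPM + 1), at -0.48. Thus ABCE1 and ABCF1 differed in opposite directions, and both passed the same way under each alternative.

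The 16 members that did not pass the filter on low counts were ABCA4, ABCA6, ABCA8, ABCA9, ABCA10, ABCA13, ABCG5, ABCG8, ABCB4, ABCB5, ABCB11, ABCC9, ABCC11, ABCC12, ABCC13, a transcribed pseudogene in RefSeq, and ABCD2. They include the photoreceptor lipid flippase ABCA4, the bile salt and phospholipid pumps ABCB11 and ABCB4, the sterol exporters ABCG5 and ABCG8 and the potassium channel regulator ABCC9. None exceeded 0.476 CPM in a library or 51 counts over all 6, and ABCG5 had 0 counts in all libraries, which allows at most the floor given above in each. In RefSeq gene order ABCA8, ABCA9, ABCA6, ABCA10 and ABCA5 stand next to each other, and of these only ABCA5 was tested. ABCC12 and ABCC11 are also adjacent, as are ABCG5 and ABCG8, and both pairs were low. ABCC1 and ABCC6 are adjacent and were both called higher in A549. Outside the symbol rule, the family members TAP1 and TAP2, which load peptides for MHC class I, and CFTR, a chloride channel, were each higher in H23. TAP1 averaged 253 ± 9.36 CPM in H23 against 50.5 ± 1.996 in A549 (log2 -2.33 ± 0.08), TAP2 had a log2 fold of -2.40 ± 0.10, and CFTR, rare in both lines, one of -3.02 ± 0.43.

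Genes that work with these transporters were read from short lists. The counts of each list, here and in the paragraphs on other lists, stand beside 37.6% of all tested genes called higher in A549 and 39.6% in H23. On log2(TPM + 1) these shares were 25.1% and 54.0%. Of 12 genes of glutathione supply and the NRF2 pathway, which makes and recycles the glutathione that ABCC pumps export, 10 were higher in A549, 1 was higher in H23 and 1 did not pass, with a median log2 fold of 1.02. The cystine carrier SLC7A11 had a log2 fold of 5.43 ± 0.34, glutathione reductase GSR one of 2.50 ± 0.08 and the ligase subunit GCLM one of 2.46 ± 0.08. Glutathione synthetase GSS was the exception, at 221 ± 27.3 CPM in H23 against 85.7 ± 2.44 in A549 (log2 -1.37 ± 0.11). On log2(TPM + 1) this list gave 7 and 2. Of 15 uptake carriers of organic anions and cations 12 were tested, with 9 called for A549 and 2 for H23. SLC22A3, an organic cation carrier, was at 87.8 ± 1.28 CPM in A549 and had 1 count over the H23 libraries, a ratio of 9670 (95% counting interval 1740 to 382000). SLCO1B3, a liver-type anion carrier, was at 49.4 ± 2.24 CPM against 1 count, a ratio of 5450 (95% counting interval 977 to 215000). SLCO2B1 was higher in A549 (log2 5.02 ± 0.24) and SLCO4A1 higher in H23 (log2 -2.92 ± 0.23). SLCO2A1, a prostaglandin carrier with 0 counts in A549, was the other called higher in H23; it is named after its values were seen.

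Among 9 xenobiotic and bile acid receptors and partners, 5 were tested, with 2 higher in A549, 2 higher in H23 and 1 not passing. The hepatocyte nuclear factor HNF4A was higher in A549. It had 1, 1 and 3 counts in the H23 libraries (0.0435 ± 0.0238 CPM), none above the floor of 3 counts, against 54.4 ± 1.75 CPM in A549. The HNF4A log2 fold of 10.11 rests on those few H23 counts, so its size is uncertain. On log2(TPM + 1) it was 3.85. ARNT, partner of the aryl hydrocarbon receptor, and PPARA were the pair higher in H23, at log2 -1.95 ± 0.15 and -1.22 ± 0.16. The 4 that did not pass the filter on low counts, named after their values were seen, were the drug-sensing receptors NR1I2 and NR1I3, the bile acid receptor NR1H4 and its partner NR0B2. Of 13 tested sterol-sensing and cholesterol acceptor genes, 6 were called for A549 and 5 for H23. NR1H3, which encodes liver X receptor alpha, averaged 2.74 ± 0.560 CPM in H23 against 10.5 ± 0.576 in A549 (log2 1.94 ± 0.17). Its partner RXRA and the lysosomal sterol carrier NPC2 had log2 folds of 1.52 ± 0.13 and 1.12 ± 0.08. PLTP, a phospholipid transfer protein, APOE and LPCAT3 stood higher in H23, at log2 -7.14 ± 0.23, -2.70 ± 0.25 and -1.69 ± 0.14. These are known liver X receptor targets like ABCA1, but they were named for the size of their folds. The list was not sorted by that role, so they do not stand for its other targets.

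Of 8 tested translation partners of the soluble members, 5 were higher in A549 and 3 did not pass. EIF2S3, a subunit of eIF2, had a log2 fold of 1.41 ± 0.09 and PELO, a rescue factor that works with ABCE1, one of 0.90 ± 0.10. HBS1L, partner of PELO, had 0.46 ± 0.10, which turned to -0.57 with length and GC trends removed. On log2(TPM + 1) this list gave 2 higher in A549 and 4 higher in H23. Peroxisome genes split, with 2 of 8 called for A549 and 4 for H23. The beta-oxidation enzyme EHHADH was higher in A549 (log2 2.45 ± 0.16), and the import factors PEX19, PEX14 and PEX5 higher in H23 (log2 -1.69 ± 0.15, -0.90 ± 0.14 and -0.55 ± 0.11). The PEX5 call was lost with length and GC trends removed, at -0.0085. Of 10 mitochondrial iron-sulfur and heme genes 4 were called for H23 and 6 did not pass, and on log2(TPM + 1) 9 were called for H23. NFS1, the cysteine desulfurase, had a log2 fold of -1.62 ± 0.08, ALAS1, which starts heme synthesis, -0.83 ± 0.11 and the iron carrier SLC25A28 -0.71 ± 0.10. With length and GC trends removed SLC25A28 lost its call, at -0.19. Of the potassium channel pores that pair with ABCC8 and ABCC9, KCNJ11 was higher in H23 (log2 -2.32 ± 0.29), as was ABCC8, and KCNJ8 higher in A549 (log2 1.32 ± 0.20), at 0.667 ± 0.0252 TPM there.

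Transcript forms of a gene were compared with edgeR's diffSpliceDGE test, which asks whether the transcripts of a gene share the same fold. Of 18 members with several transcripts kept, 7 passed, beside 36.2% of 7539 genes. Without H23 replicate 3, 11 passed. The share over all genes is not given for that fit, so the rise is not read as a result about the family. The 18 include ABCF1, whose leading entries are copies of NM_001025091 with equal counts, so it could not pass. The percentages below are RSEM's shares of a gene's transcript abundance, scaled for transcript length, and are not shares of its reads. RSEM's division of reads among transcripts has an error of its own, which the test leaves out. In ABCB6, whose level did not pass, NM_001349828 made up 38.6, 22.5 and 24.8% in H23 and 2.37, 3.96 and 1.86% in A549 (edgeR adjusted p = 1.06e-13). The rest was the longer NM_005689, and the lines did not overlap. For ABCG1, NM_207629 held 56.3, 37.9 and 42.5% in H23 and 0% in each A549 library, where NM_016818 took 35.7, 33.6 and 39.5%. NM_004915 was the leading form of ABCG1 in A549 and on average in H23. ABCC3's short form NM_001144070, of 1885 bases against 5166 for NM_003786, held 24.0, 18.4 and 18.8% in H23 and 2.90, 3.88 and 2.09% in A549. The short form was thus the smaller part in both lines.

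A change of leading form by this share was seen in ABCC5. Its 5864-base NM_005688 held 55.6, 83.4 and 78.7% in H23 and 37.4, 37.9 and 41.1% in A549, while the 1995-base NM_001023587 held 37.5, 12.6 and 14.1% and 62.7, 54.0 and 58.9%. In these shares H23 replicate 1 lay between the other H23 libraries and A549. By RSEM's counts the longer NM_005688 led in both lines. In A549 it had 296.2, 327.9 and 372.5 counts, against 158.8, 148.8 and 170.5 for NM_001023587. ABCD4, a gene with 9 transcripts tested, had NM_005050 at 0, 0 and 0.76% in H23 and at 40.9, 28.4 and 41.6% in A549. In H23 its abundance was divided over many forms, led on average by NM_001353593 at 19.97 ± 17.1%, which ran from 0.23% in replicate 1 to 31.2% in replicate 3. In ABCC10, NM_001198934 held 9.24, 38.7 and 50.1% in H23 and 55.1, 75.2 and 62.7% in A549, so the lines were apart but the H23 libraries spread widely. ABCC4 kept its main form NM_005845 at 92.2 ± 3.10% and 92.4 ± 3.39%, and differed in minor forms, with NM_001105515 at 0% in H23 and 5.34 ± 1.82% in A549. ABCF2, which did not pass the usage test, had different leading forms by mean share only by way of H23 replicate 1. There NM_007189 held 88.4%, against 46.7 and 44.6% in the other H23 libraries and 40.6 to 41.6% in A549. ABCC8 also led with different forms by mean share, but its shares ran from 0 to 95.1% within H23 alone.

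**Figure D4:**
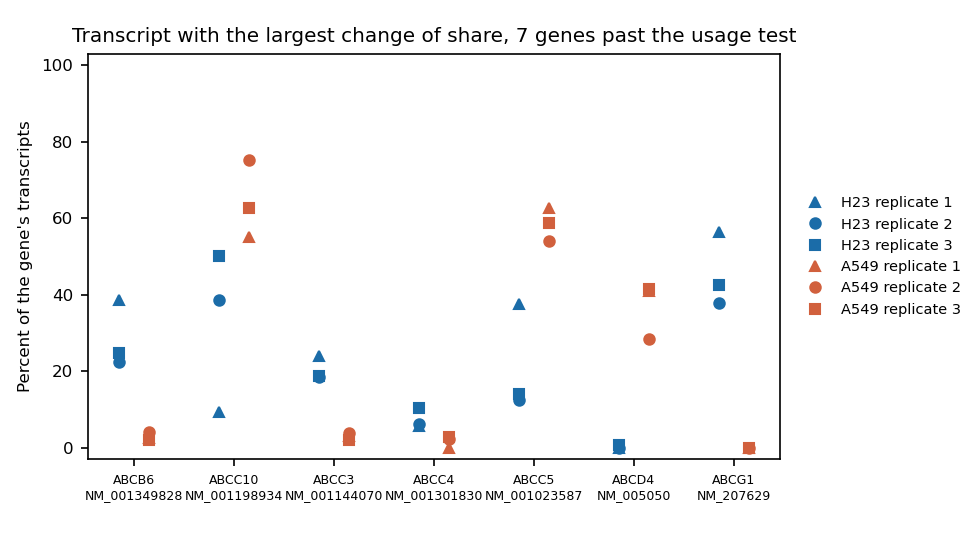
Percent of a gene's transcripts held by the transcript with the largest difference of mean share, in each of the 6 libraries, for the 7 members past the usage test. H23 (blue) and A549 (orange) do not overlap for these transcripts, and ABCC10 has the widest spread among H23 libraries, from 9.24% to 50.1%.

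Of the 23 called members, 16 kept the same call under all 17 alternatives, among them ABCA1, ABCB10, ABCC1, ABCC2, ABCC3, ABCC4, ABCD3, ABCE1 and ABCG2 higher in A549, and ABCA7, ABCB1, ABCC8, ABCC10, ABCF1 and ABCG4 higher in H23. The scale mattered for the count as a whole. On log2(TPM + 1) the median over all genes moved to -0.41 and that of the members to -0.43, and the members split 9 for A549 and 16 for H23. On that scale 79.1% of all genes passed, 25.1% for A549 and 54.0% for H23, so that 31.7% of calls over all genes were for A549 in place of 48.7%. With upper quartile factors the median of all genes was -0.16 and the members split 12 and 14. Under that setting 5271 of 15426 genes were called for A549 and 6653 for H23, or 44.2% of calls for A549. Once length and GC trends were removed the members split 15 and 9, a share of 62.5% higher in A549, with a member median of 0.29 beside 0.02 over all genes, of which 80.5% passed, 40.7% for A549 and 39.8% for H23. With no filter on low counts 45 members were tested and split 13 and 12, where 61.6% of all genes passed, 30.3% for A549 and 31.3% for H23. Members had a median transcript GC content of 53.3% beside 48.9% over all genes, and GC content and log2 fold had a rank correlation of -0.482 across the 30 members and -0.275 across all genes.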

How the data were processed

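Total RNA from 3 cultures each of H23 and A549 was sequenced on an Illumina instrument after ribosomal RNA removal with a stranded kit, per the labels' protocols. The submitters' processing notes name STAR 2.6.0c, RSEM 1.3.0 and the build hg19, and options, annotation release and strand setting are not given in the sources used here. Per the file headers, RSEM's expected counts per gene or transcript were deposited unscaled. The deposited TPM and FPKM values are scaled by the authors for length and depth, and FPKM was not used. A transcript's share of its gene is deposited as a percent.

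Expected counts were rounded and tested in edgeR 4.0.16 (R 4.3.3) with filterByExpr, TMM factors, a robust quasi-likelihood fit and Benjamini-Hochberg adjustment over all genes, threshold 0.05. Standard errors are approximate, from the fold and F. Usage was tested with diffSpliceDGE. Alternatives used DESeq2 1.42.0, limma 3.58.1 on log2 TPM, other scalings and filters, length and GC trends, a replicate block and each library left out. Each test was checked on simulated data. Floors and intervals cover counting error only. Members, gene lists and naming rules were chosen with earlier results of these data known. Values in every library are given for members past the test with a log2 fold of at least 1 whose higher line averaged 1 TPM or more, and for 7 set members. Companion genes are the 3 per direction with the largest fold among called genes at 1 TPM or more, and every gene of a list of 3 or fewer. The values of some genes counted in the totals are not reported here. The tables carry no coordinates. Promoters are from RefSeq, GRCh38.p14, matched by symbol, and GC content is that of the reference transcripts of the matched gene.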

Additional observations from a re-analysis of the deposited data

How the results depend on the processing

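The counts of members called higher in A549 and in H23 were recomputed under 17 alternatives and lay between 9 and 15 and between 9 and 16, each within 1.5 times of 12 and 11, and the number of genes called ran from 11037 to 13774. Members with a called usage difference were 7, and 8 to 11 with each library left out, 11 without H23 replicate 3. Usage shares over all genes are not given for the alternatives, so these counts cannot be set against the whole table. Among the genes reported here, directions turned as follows, on the log2 scale. ABCA5 was at 0.003741 with DESeq2, 0.0897 with the replicate block, 0.50 without H23 replicate 1, and 0.03 and 0.005692 without A549 replicates 1 and 3, and its lowest value with 1 library left out was -0.23, without H23 replicate 2. With length and GC trends removed, ABCB6 was at 0.30, ABCB8 at 0.29, ABCD4 at 0.35 and HBS1L at -0.57. On log2(TPM + 1) and log2(TPM + 0.1), ABCC6 was at -0.0692 and -0.0815 and ABCF3 at -0.48 and -0.50. ABCF3 was also at -0.0922 with upper quartile factors and, with each library left out, ran from -0.0888 (without H23 replicate 1) to 0.11 (without H23 replicate 3). ABCB8 ran from -0.19 (without H23 replicate 1) to 0.0273 (without H23 replicate 2) and was at 0.00052 without A549 replicate 2. Apart from the length and GC values, where a trend was removed by construction, the cause was not tested. Same-numbered libraries gave correlations of their deviations of 0.025, -0.0389 and 0.0544, and differently numbered ones -0.0528 to 0.0292. The labels do not say whether the numbers pair the cultures. With so few libraries per line these correlations cannot decide it. With the replicate block 12 and 11 members were called for A549 and H23, 7 passed the usage test and 11691 genes were called. With no filter on low counts, 45 members were tested and 13 and 12 called, where 61.6% of all genes passed. Depth limits ABCB1, ABCG4, ABCC6, ABCA12 and ABCC8, and the 16 untested members most.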
